A study of Mus musculus with 6 samples.

Results

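RGS proteins (regulators of G-protein signalling) were followed here through 6 genes, Rgs1, Rgs2, Rgs10, Rgs14, Rgs18 and Rgs19, in mouse bone marrow-derived macrophages exposed to oxidised low-density lipoprotein (oxLDL). These 6 rows were picked by symbol out of 24054 genes, with the oxLDL contrast of these data already known, so their values in that contrast are described and not tested. Where calls from a fit over all genes are given for them, they are no evidence for the contrast. The tables list 21 genes of the RGS families in all, and the 6 genes passed the filter on low counts in full. The cells came from wild-type C57BL/6 mice and were grown for 7 days in L929-conditioned medium, which is how marrow precursors are commonly turned into macrophages. Of 6 bulk RNA libraries, 3 were from untreated cells and 3 from cells kept for 24 hours with 50 µg/ml oxLDL. Each group carries the numbers 1, 2 and 3. The labels do not say whether a number marks a mouse, a culture or a pool, nor what the word mix in every title means.

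A receptor coupled to G proteins acts by loading the alpha subunit of its G protein with GTP. RGS proteins bind the loaded alpha subunit and speed the hydrolysis of GTP, which ends the signal of alpha and of the released beta-gamma pair. In macrophages these receptors sense chemokines, complement fragments, nucleotides and prostaglandins, so the set of RGS proteins in a cell helps to set how long such signals last. Rgs1, Rgs2 and Rgs18 belong to the R4 family of small RGS proteins, Rgs10 and Rgs14 to the R12 family, and Rgs19 to the RZ family.

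Totals ran from 13546572 to 15559310 expected counts per library. The libraries numbered 3 stood apart: across genes, Pearson's r of log2 CPM (counts scaled to library size) was 0.984 between the untreated libraries 1 and 2 but 0.889 and 0.897 for each of them with library 3. Under oxLDL it was 0.983 between 1 and 2, against 0.908 and 0.922 with library 3. All 10 macrophage markers examined were detected, and their summed level was 12993 to 36511 CPM in untreated and 9174 to 16163 CPM in oxLDL samples. Lyz2 made the largest part of that sum in every sample. Of these markers 3 fell with oxLDL in the blocked fit described below (Fcgr1, Spi1 and Aif1). Emr1 and Itgam were also lower, with groups that did not overlap, but did not pass (edgeR adjusted p = 0.145 and 0.0547). Cd68 went the other way, from 746, 1094 and 1183 CPM to 1609, 1634 and 1337 CPM, and did not pass either. Groups of Csf1r, Mertk, Lyz2 and Cd14 overlapped. The 8 marker lists of other cell types summed to at most 38.3 CPM in any sample. Whether these shifts had a part in the values below was not tested. In bulk RNA, fewer cells with a transcript and less of it per cell cannot be told apart.

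Across the 6 genes, oxLDL went with lower levels of Rgs14, Rgs18 and Rgs19 within every number, with a higher level of Rgs1 within numbers 1 and 2, and with mixed directions of Rgs2 and Rgs10. Levels are the authors' CPM scaled with TMM (trimmed mean of M-values) factors. A ratio within a number sets the oxLDL library against the untreated library of the same number. Of the 6 genes, 3 were lower within all 3 numbers, 0 were higher within all 3 and 3 had mixed directions. Over all 11400 genes tested, 26.5% were lower within all 3 numbers, 26.6% were higher and 46.9% were mixed, and nothing is read from the comparison because the genes were picked with this contrast in view.

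**Figure D1:**
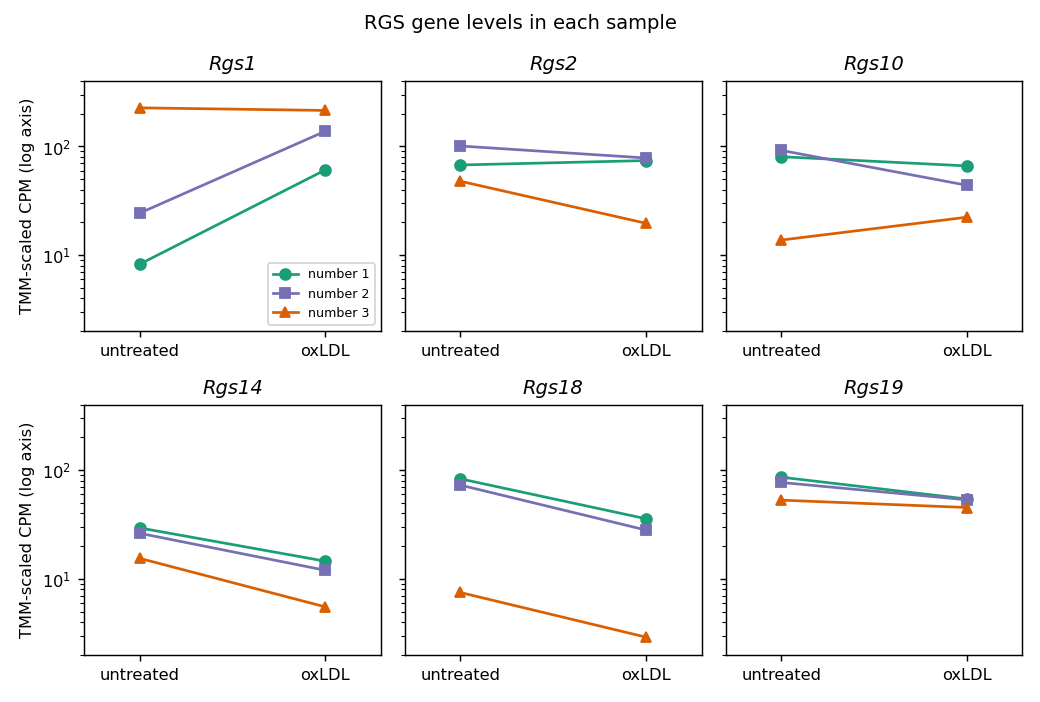
Level of each RGS gene in TMM-scaled CPM (log axis) in untreated and oxLDL libraries, with a line joining the libraries of a number. Lines of Rgs14, Rgs18 and Rgs19 slope down in all 3 numbers, Rgs1 climbs in numbers 1 and 2 from 8.26 and 24.4 CPM, and the number 3 libraries (triangles) are the lowest of their group in every panel but that of Rgs1.

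Rgs1 is an R4 protein known from lymphocytes and macrophages for dampening the response to chemokines. Without oxLDL its level was 8.26, 24.4 and 227 CPM in numbers 1, 2 and 3, and with oxLDL it was 60.8, 138 and 215 CPM. Untreated sample 3 already held as much as any oxLDL library, so the groups overlapped. Rgs1 was 7.36-fold higher with oxLDL in number 1 and 5.66-fold higher in number 2, while the ratio was 0.947 in number 3. On the log2 scale these ratios were 2.88, 2.50 and -0.079, with counting errors (SE, counting only) of 0.14, 0.085 and 0.036. The fitted log2 fold change was 0.66 ± 1.20 (SE, n = 3 per group) without the number in the model, 1.78 ± 0.68 with it, and 2.68 ± 0.14 with it and without number 3. The 3 untreated libraries spanned 27.4-fold from lowest to highest.

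Rgs2 is known for its preference for the alpha subunit of Gq, which drives phospholipase C. Its levels were 67.6, 101 and 47.9 CPM untreated and 74.2, 78.4 and 19.7 CPM with oxLDL. Number 1 was nearly level (log2 ratio 0.13), number 2 was lower with oxLDL (-0.37) and number 3 was lower still (-1.28). The groups overlapped, and the oxLDL library of number 3 was the lowest of the 6. The fitted change was -0.33 ± 0.56 without the number and -0.49 ± 0.30 with it, and -0.11 ± 0.15 with number 3 left out.

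Rgs18 is found mainly in blood cells and is best known from platelets and megakaryocytes. Its level was 83.3, 72.9 and 7.50 CPM without and 35.8, 28.1 and 2.91 CPM with oxLDL. Both libraries of number 3 were far below the others, so the groups overlapped although every number fell. The untreated level was 2.33, 2.59 and 2.57 times the oxLDL level in numbers 1, 2 and 3, log2 ratios of -1.22, -1.37 and -1.36. The ratio in number 3 rested on 111 and 40 counts and had a counting error of 0.27. The fitted log2 fold change was -1.28 ± 1.11 without the number and -1.31 ± 0.11 with it, and -1.29 ± 0.11 without number 3. Platelet and megakaryocyte markers summed to 13.1 to 19.8 CPM untreated and 12.7 to 25.1 CPM with oxLDL, mostly from Pf4, and Gp1bb was at 0 in all samples.

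Rgs10 is a short R12 protein acting on alpha subunits of the Gi class, and in microglia it is known for restraining inflammatory gene expression. Its levels were 80.5, 92.1 and 13.8 CPM untreated and 66.3, 44.0 and 22.4 CPM with oxLDL. Numbers 1 and 2 were lower with oxLDL (log2 ratios -0.28 and -1.07) and number 3 was higher (0.70, counting error 0.13). The untreated library of number 3 was the lowest of all, and the groups overlapped. The fitted change was -0.48 ± 0.73 without the number and -0.24 ± 0.35 with it, and -0.66 ± 0.22 without number 3.

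Rgs14 joins its RGS domain to Ras-binding domains and a GoLoco motif, which holds Gi alpha subunits in the inactive form. It measured 29.5, 26.3 and 15.5 CPM untreated and 14.6, 12.01 and 5.54 CPM with oxLDL. Every oxLDL library was below every untreated library. This was the only one of the 6 genes whose groups did not overlap, against 10.2% of all tested genes apart in that direction and 10.8% in the other. The untreated level was 2.02, 2.19 and 2.80 times the oxLDL level in numbers 1, 2 and 3. The fitted log2 fold change was -1.14 ± 0.42 without the number, -1.20 ± 0.15 with it and -1.06 ± 0.13 without number 3.

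Rgs19, also called GAIP, is an RZ protein with a string of cysteines and was found through its binding to a Gi alpha subunit. Its levels were 86.3, 77.1 and 53.0 CPM untreated and 54.4, 53.4 and 45.4 CPM with oxLDL. The oxLDL libraries of numbers 1 and 2 were just above untreated sample 3, so the groups overlapped. Log2 ratios of -0.67, -0.53 and -0.23 were the smallest among the 3 genes that were lower in all numbers. The fit gave -0.50 ± 0.21 without the number, -0.48 ± 0.12 with it and -0.59 ± 0.11 without number 3.

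**Figure D2:**
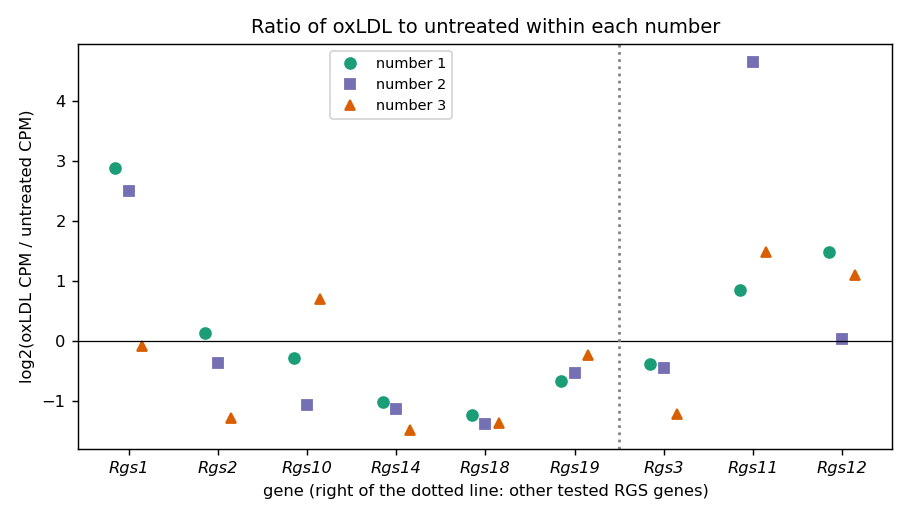
Log2 ratio of oxLDL to untreated CPM within numbers 1, 2 and 3 for the 6 RGS genes and, right of the dotted line, the other 3 RGS genes that passed the count filter. The ratios of Rgs18 lie between -1.37 and -1.22, while those of Rgs1 run from -0.079 to 2.88.

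The edgeR quasi-likelihood test across all genes was fitted without and with the replicate number as a block. Without it, 0 of 11400 genes had an adjusted p below 0.05 (0.0%), although 1674 had an unadjusted p below 0.05, DESeq2 called 873 and limma-voom called 10. With the block 672 genes passed (5.89%), of which 218 were higher (1.91%) and 454 lower (3.98%). Rgs14 and Rgs18 were among the lower genes and the remaining 4 did not pass. DESeq2 with the block called 16.3% of genes, and among the 6 it called 1 higher (Rgs1) and 2 lower. These counts describe genes that were picked with the contrast known and are no evidence for it. Number 3 moves the count strongly: with the block 3424 of 11543 genes passed without it (29.7%, 13.9% higher and 15.7% lower), and 0 passed without number 1 or without number 2. In the fit without number 3, 4 of the 6 genes passed, Rgs1 as higher and Rgs14, Rgs18 and Rgs19 as lower. This count, too, is no evidence for the contrast.

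The number of a library took a larger part of the variation than oxLDL did for 4 of the 6 genes. The sum of squares of log2 CPM over the 6 libraries was divided into treatment, number and remainder. Number has 3 levels and treatment has 2, so number can take a larger part without a stronger effect. The parts were not scaled for this. Number took 86.2% for Rgs10, 85.6% for Rgs18, 73.7% for Rgs2 and 60.1% for Rgs1. Treatment took the larger part for Rgs14 (58.3%, with 40.0% for number) and Rgs19 (53.1%, with 40.3%). The remainder was 0.0456% for Rgs18 and 15.4% for Rgs2. Over all tested genes the median part was 23.2% for treatment, 50.6% for number and 12.6% for the remainder.

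**Figure D3:**
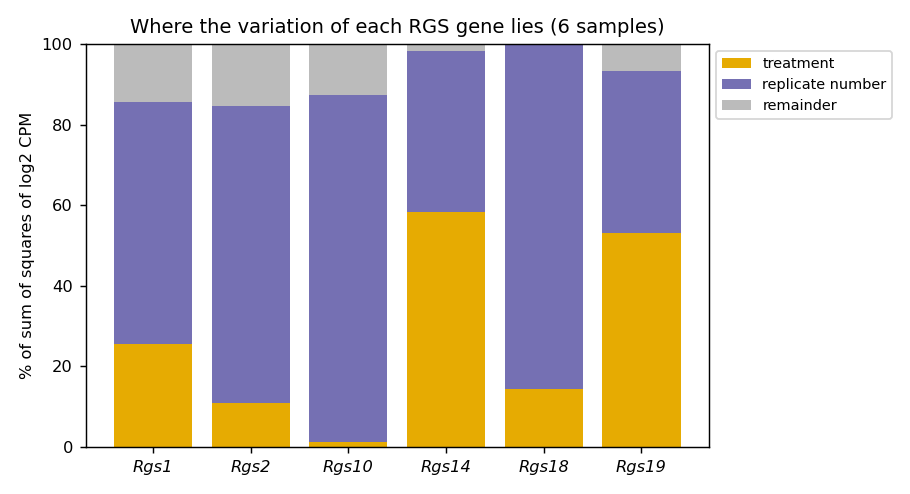
Percent of the sum of squares of log2 CPM over 6 libraries taken by treatment, replicate number and the remainder, as stacked bars that start at 0. Number takes 86.2% for Rgs10 and 85.6% for Rgs18, and treatment takes 58.3% for Rgs14.

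Among untreated cells alone, number 3 held 13.9 times the mean Rgs1 level of numbers 1 and 2. That mean was 10.4 times the number 3 level for Rgs18 and 6.26 times for Rgs10. The same comparison gave 1.80 for Rgs14, 1.76 for Rgs2 and 1.54 for Rgs19. With oxLDL the gap of Rgs1 was 2.16-fold, that of Rgs10 was 2.47-fold and that of Rgs18 was 11.0-fold. A test of the number over all genes, with treatment in the model, was added after these values were seen. In edgeR 883 of 11400 genes passed (7.75%), and of the 6 genes 1 passed, Rgs18 (edgeR adjusted p = 0.00723). Rgs14 was closest of the others (edgeR adjusted p = 0.0549), and DESeq2's likelihood ratio test, which passed 2195 of all genes (19.3%), passed 5 of the 6, all but Rgs19 (DESeq2 adjusted p = 0.361). Whether the response to oxLDL differed between numbers was not tested, since each number held 1 library per group.

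Rgs1, Rgs2 and Rgs18 lie in a row of RGS genes on mouse chromosome 1, all on the same strand. In the order of the GENCODE M21 annotation this row runs Rgs2, Rgs13, Rgs1, Rgs21 and Rgs18, with only pseudogenes and a small nuclear RNA gene between them. Rgs13 and Rgs21 had 0 counts in all 6 samples. Log2 ratios of Rgs1, Rgs2 and Rgs18 were 2.88, 0.13 and -1.22 in number 1, 2.50, -0.37 and -1.37 in number 2, and -0.079, -1.28 and -1.36 in number 3. Rgs1 thus went the other way from Rgs18 in numbers 1 and 2, while in number 3 Rgs2 and Rgs18 were lower by similar amounts and Rgs1 was nearly level. Rgs10 lies on chromosome 7, Rgs14 on chromosome 13 and Rgs19 on chromosome 2. In that annotation Rgs10 overlaps Gm15503, a transcript on the same strand that has no row in the tables, and the others overlap no gene. Expected counts were not whole in 1 sample for Rgs10 and in 1 sample for Rgs18, a sign that RSEM divided a read between genes there.

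Promoter windows from RefSeq (build GRCm38.p6, 250 bases before to 50 after the start site) were at hand for 3 of the 6 genes, and are printed to set the gene that was lower in all numbers, Rgs19, beside the mixed genes Rgs2 and Rgs10. Capitals mark motif matches on either strand. The Rgs2 window is chr1:144004100-144004399, the Rgs10 window chr7:128418123-128418422 and the Rgs19 window, the first of 3 listed, chr2:181693928-181694227, each on the minus strand and written 5′ to 3′.
Rgs2: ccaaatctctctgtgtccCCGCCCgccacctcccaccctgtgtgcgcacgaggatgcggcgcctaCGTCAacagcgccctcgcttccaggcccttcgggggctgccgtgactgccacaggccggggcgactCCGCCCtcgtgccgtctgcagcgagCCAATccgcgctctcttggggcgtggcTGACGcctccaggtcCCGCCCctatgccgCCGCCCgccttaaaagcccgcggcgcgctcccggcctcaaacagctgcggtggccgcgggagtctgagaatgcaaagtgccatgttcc
Rgs10: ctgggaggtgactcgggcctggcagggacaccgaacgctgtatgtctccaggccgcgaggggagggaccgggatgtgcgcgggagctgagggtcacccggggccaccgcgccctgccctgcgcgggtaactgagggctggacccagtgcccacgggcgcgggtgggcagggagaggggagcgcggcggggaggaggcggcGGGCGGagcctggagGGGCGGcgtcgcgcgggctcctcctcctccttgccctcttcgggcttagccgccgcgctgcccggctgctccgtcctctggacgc
Rgs19: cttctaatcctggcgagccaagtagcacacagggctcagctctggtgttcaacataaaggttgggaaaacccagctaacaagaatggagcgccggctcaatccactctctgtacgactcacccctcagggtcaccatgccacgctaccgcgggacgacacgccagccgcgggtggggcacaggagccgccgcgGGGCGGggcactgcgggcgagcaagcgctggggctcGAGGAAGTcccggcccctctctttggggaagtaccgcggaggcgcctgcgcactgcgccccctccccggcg
The motifs searched, with the percent of 32851 such windows that hold each, were the GC box GGGCGG (35.7%), the CCAAT box CCAAT (37.4%), the core TGACG of the cAMP response element (20.8%) and its full form TGACGTCA (1.79%), which contains the core. Also searched were AP-1 TGANTCA (7.81%), the interferon response core, GAAA repeated after 2 bases of any kind (3.44%), the antioxidant response core TGACNNNGC (12.4%), the E-box CACGTG (7.15%), the TATA box TATAAA (13.6%) and the macrophage factor core GAGGAAGT (3.20%). GC boxes numbered 4 in the Rgs2 window, 2 in that of Rgs10 and 1 in that of Rgs19. Rgs2 also held a CCAAT box at -94 and cores TGACG at -185 and -67 from the start site, and Rgs19 held GAGGAAGT at -21. The windows were rich in G and C, at 70.0% for Rgs2, 76.0% for Rgs10 and 66.7% for Rgs19, against a median of 52.7%. A match describes letters only, and no value here measures binding.

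The RGS genes outside the 6 were mostly silent. Of 15 such genes, 7 had 0 counts in all samples, 4 had counts below 10 in every sample, and Rgs9 reached 12 counts in untreated sample 3 without passing the filter. The other 3 were tested, and 0 passed in edgeR with or without the block (0 in DESeq2 with the block, and 1 had an unadjusted p below 0.05 in edgeR without it). Rgs3, an R4 protein, measured 18.0, 17.7 and 15 CPM untreated and 13.8, 12.9 and 6.48 CPM with oxLDL, groups that did not overlap (21.0% of all tested genes were apart in either direction). The blocked fit gave -0.67 ± 0.22 on the log2 scale (edgeR adjusted p = 0.130). Rgs11, an R7 protein that pairs with the beta subunit Gnb5, measured 0.482, 0.0719 and 0.676 CPM untreated and 0.872, 1.79 and 1.89 CPM with oxLDL (1.89 ± 0.69, edgeR adjusted p = 0.156). Its groups did not overlap either, with oxLDL higher, at no more than 27 counts in any sample. Rgs12, the third R12 protein, measured 1.03, 3.09 and 4.39 CPM untreated and 2.89, 3.19 and 9.40 CPM with oxLDL (0.84 ± 0.35, edgeR adjusted p = 0.192).

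Genes on which RGS proteins act, or which act beside them, were taken from lists of 145 genes written with earlier results of these data known, of which 110 were tested. With the block 4 rose and 12 fell, and 94 did not pass. Without it 0 passed, with 26 at an unadjusted p below 0.05. Their median log2 fold change with the block was -0.35, against 0.012 over all tested genes. Calls on these lists are those of edgeR with the block. They were lost once number 1 or number 2 was left out, when 0 of the listed genes and 0 of all genes passed. Once number 3 was left out they grew in number, to 17 higher and 46 lower. That was 57.8% of the listed genes in that fit, against 29.7% of all genes. Because earlier results were known, shares of a list set against all genes, here and below, are no evidence that the list responded more.

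Receptors of macrophages, the longest list, held most of the calls. The share called was 24.4%, against 20.0% of effectors, 14.3% of receptor kinases and arrestins and 5.89% of all genes. Of 48 listed, 41 were tested, 9 fell and 1 rose, with a median log2 fold change of -1.01. Without number 3 the block called 19 lower and 8 higher. That was 67.5% of the receptors kept in that fit, against 29.7% of all genes. C3ar1, the receptor of complement fragment C3a, fell from 2416, 2674 and 1632 CPM to 739, 437 and 272 CPM, with groups that did not overlap (-2.30 ± 0.27, edgeR adjusted p = 0.0302). The prostaglandin E receptor Ptger4 fell from 79.5, 53.7 and 23.9 CPM to 11.5, 9.09 and 6.99 CPM (-2.39 ± 0.23). The nucleotide receptor P2ry6 fell by 1.89 ± 0.22 and the fractalkine receptor Cx3cr1 by 1.81 ± 0.29 on the log2 scale. Gpr84, a receptor of medium-chain fatty acids, fell within each number but was 54.3 CPM in untreated sample 3 against 4.34 and 2.08 CPM in the others (-2.42 ± 0.20). Its sign turned to 0.20 in the fit without the block that left out untreated sample 3. The receptor that rose was Ccrl2, named after its values were seen, with 3.58, 7.33 and 180.5 CPM untreated and 11.5, 16.1 and 592 CPM with oxLDL.

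Subunits of the G proteins themselves gave no call in edgeR with or without the block over all 6 libraries. With the block and without number 3, 4 alpha subunits were called lower and 0 higher, and 3 beta or gamma subunits higher and 1 lower. These were 44.4% and 33.3% of the 2 lists in that fit, against 29.7% of all genes. Of 9 tested alpha subunits 0 passed with the block, 0 had an unadjusted p below 0.05 without it, and DESeq2 with the block called 3 lower. Gnai2, a Gi subunit of leukocytes that RGS proteins act on, measured 1105, 935 and 557 CPM untreated and 720, 658 and 424 CPM with oxLDL. Its blocked change was -0.51 ± 0.16 on the log2 scale, at an edgeR adjusted p of 0.116. Gnai3, another Gi subunit, named after its values were seen, had a blocked change of 0.0025 (edgeR adjusted p = 0.992). Gna12 and Gna15 were at -0.87 ± 0.18 and -0.91 ± 0.18, short of the threshold at edgeR adjusted p-values of 0.0625 and 0.0597. Of 12 tested beta and gamma subunits 0 passed in edgeR with the block, 3 had an unadjusted p below 0.05 without it, and DESeq2 with the block called 2 higher and 1 lower. Gng4 was at 0.138, 0.359 and 0.743 CPM untreated and at 0.939, 1.33 and 16.9 CPM with oxLDL, a blocked value of 3.42 ± 0.62 at an edgeR adjusted p of 0.0501 and of 2.18 without number 3. Gng11 (1.69 ± 0.47) and Gnb5 (0.76 ± 0.23) did not pass.

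Among receptor kinases and arrestins, which uncouple activated receptors, 1 of 7 fell and 0 rose. Arrb2, beta-arrestin 2, measured 313, 348 and 198 CPM untreated and 155, 124 and 102 CPM with oxLDL, so the groups did not overlap (-1.15 ± 0.16, edgeR adjusted p = 0.0362). Arrb1, beta-arrestin 1, named after its values were seen, was not called (-0.21 ± 0.25, edgeR adjusted p = 0.612). It measured 632, 506 and 120 CPM untreated and 415, 369 and 164 CPM with oxLDL. Without number 3 the block called 6 of the 7 lower, in a fit that called 15.7% of all genes lower.

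Effectors downstream of G proteins moved in both directions: of 25 tested, 3 rose and 2 fell. DESeq2 with the block called 4 higher and 7 lower, and edgeR with the block and without number 3 called 5 higher and 13 lower. The calls of that edgeR fit were 72.0% of its effectors, against 29.7% of all genes. Plcb4, a phospholipase C that Gq activates, rose from 0.275, 0.287 and 1.55 CPM to 2.75, 2.52 and 7.79 CPM (2.77 ± 0.35). Its untreated values rested on 4, 4 and 23 counts. Plcb2 and Plcb3, at higher levels and named after their values were seen, were not called (0.12 ± 0.12 and -0.35 ± 0.11). Pde3b, which breaks down cAMP, rose by 1.58 ± 0.25, and Prkar2b, a regulatory subunit of the cAMP-dependent kinase, rose by 1.23 ± 0.19. Adcy7, an adenylyl cyclase of leukocytes, fell from 534, 512 and 145 CPM to 270.2, 251 and 82.4 CPM (-0.95 ± 0.13). Pik3r6, a regulatory subunit of the PI3 kinase that beta-gamma activates, fell by 1.07 ± 0.19 (edgeR adjusted p = 0.0495). Of 13 tested proteins with an RGS-like domain or a GoLoco motif, and helpers of alpha subunits, 0 passed in edgeR or in DESeq2 with the block, and 1 had an unadjusted p below 0.05 in edgeR without it. In the blocked fit without number 3, 1 was higher and 3 were lower (30.8%, against 29.7% of all genes). Snx25 (0.79 ± 0.25), Arhgef12 (0.50 ± 0.15) and Gpsm1 (0.49 ± 0.20) had the largest values of that list.

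**Figure D4:**
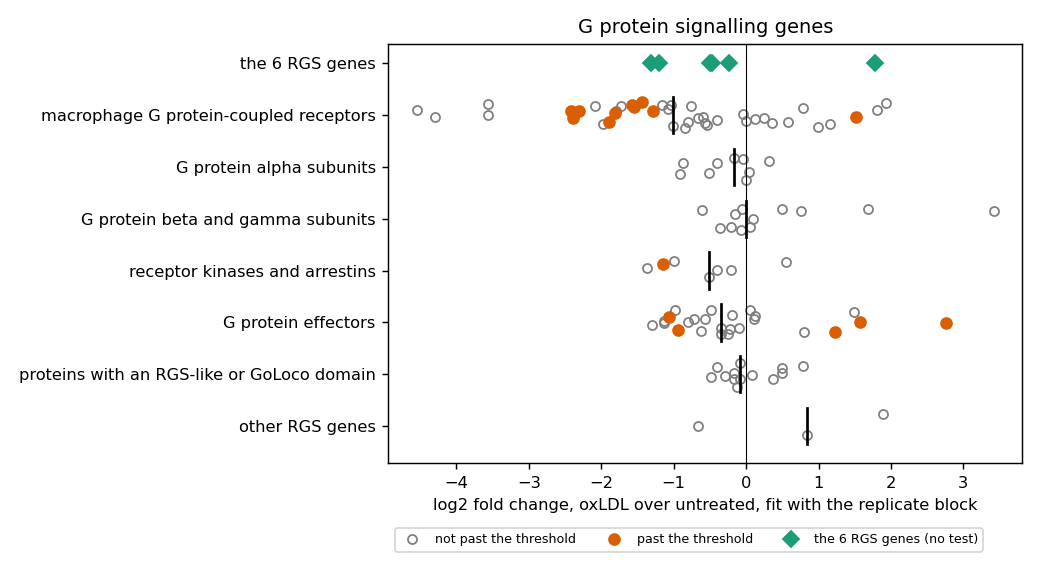
Log2 fold change of oxLDL over untreated, from the fit with the replicate block, of the 6 RGS genes (diamonds) and of 110 tested genes in 7 lists. Filled points passed an adjusted p of 0.05, black bars are list medians, and 9 of 41 receptors passed on the lower side against 1 on the higher side.

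The genes whose log2 CPM ran most like each RGS gene over the 6 libraries were found by Pearson's r as a description: all genes share the libraries and the split of number 3, and r compares shape, not size (Parp4 stayed between 95.3 and 120 CPM). Rgs1 ran with Gk5 (r = 0.998) and Scly (0.996), and Rgs2 with Snx24 (0.998) and Mppe1 (0.998). Rgs10 ran with Parp4 (0.999) and Cpsf1 (0.997), and Rgs18 with Prkcd (0.999) and Rassf5 (0.999), which fell with the block. Rgs14 ran with Tnfrsf11a (0.998), the receptor RANK, and Pld4 (0.998), both of which also fell with the block. Rgs19 ran with Capza1 (0.999) and Necap2 (0.996). Among the 6 genes themselves, Rgs1 ran against each of the others (r from -0.94 with Rgs19 to -0.55 with Rgs2), while the other 5 ran together (0.63 to 0.92).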

How the data were processed

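Bulk RNA of 6 samples was analysed, 3 per group, with groups and numbers taken from the titles. The authors deposited expected counts estimated with RSEM and a signal of TMM-scaled CPM, per the file names. The submitters' processing notes list Bowtie2 2.1.0, RSEM 1.2.15, edgeR and hg19, a human build, although the symbols are mouse. The mouse annotation and the strand setting are not given in the sources used here. Between 10.4% and 11.1% of expected counts were not whole (tolerance 0.005), since RSEM divides shared reads, and they were rounded for the tests. The deposited signal was whole reads times a constant: 100.0% of values came out whole and equalled the rounded counts, so the count test is the test on those reads. Levels are this signal.

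Genes were kept with filterByExpr of edgeR (minimum count 10, minimum total 15). The main test was edgeR 4.0.16's quasi-likelihood test (R 4.3.3, TMM factors 0.942 to 1.06, Benjamini-Hochberg over 11400 genes, threshold 0.05) with group alone. DESeq2 1.42.0 and limma 3.58.1 were alternatives. For numbers 1, 2 and 3 the deviations from the group mean correlated across genes at 0.66, 0.45 and 0.70, each above 0.1. By that limit the numbers were taken to pair samples, and values blocked by number stand beside the others. Unlike numbers gave -0.76 to 0.63. The 0.63 was untreated 2 with oxLDL 1, above the 0.45 of number 2 with itself. The pairing therefore rests on the numbers in the titles, and the limit does not tell libraries 1 and 2 apart. Log2 CPM used a prior count of 2. The labels do not state that libraries came from separate cultures or animals, and each p-value reflects the spread among these 6 libraries, which may be technical.

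The 6 genes, the lists and the blocked fit as the one to describe were chosen with earlier results of these data known. Named were the 6 genes, RGS genes with at least 10 counts in a sample, up to 5 called genes of each list by fold change or else the top 3, and the 2 most similar genes. Counting errors cover counting only. The SE of a fitted edgeR change is its absolute value divided by the square root of the quasi-likelihood F statistic. It is unreliable where the fitted change is very small. Fits without number 3 rest on 2 libraries per group.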

Additional observations from a re-analysis of the deposited data

How the results depend on the processing

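Signs of Rgs1, Rgs14, Rgs18 and Rgs19 were the same in all 22 alternative settings tried. Rgs1 ran from 0.11 to 3.08 on the log2 scale, Rgs14 from -1.43 to -0.84, Rgs18 from -1.80 to -0.77 and Rgs19 from -0.67 to -0.36. Over all settings Rgs2 ran from -0.83 to 0.077 and Rgs10 from -0.96 to 0.19. Rgs2 turned to 0.077 without oxLDL replicate 3, with a lowest value of -0.62 without another single sample. Rgs10 turned to 0.19 with the replicate block and without number 2. Gpr84 turned to 0.20 without untreated replicate 3 and ran down to -5.08 without oxLDL replicate 3. The cause was not tested. Over all genes the count of calls was 0 without the block and 672 with the replicate block. It was 873 in DESeq2 and 1853 in DESeq2 with the block, 10 in limma-voom and 959 with the block, 689 with DESeq2 size factors and the block, 8 without a filter and 791 with the block, and 11 with limma on log2(CPM + 1). Leaving out 1 sample gave 0 to 737 calls without the block (737 without untreated sample 3, 31 without oxLDL sample 3). Leaving out a number gave 0 to 3424 with the block and 0 to 3132 without it, an alternative added after seeing the data. For the G protein signalling genes the counts were 0 without the block and 16 with it, 15 in DESeq2 and 40 with the block, 22 in limma-voom with the block, 18 with DESeq2 size factors and the block, and 20 without a filter and with the block. Leaving out 1 sample gave 0 to 15 calls, and leaving out a number gave 0 to 63 with the block and 0 to 54 without it. Genes that differed between numbers were 883 in edgeR and 2195 in DESeq2. Of the 6 genes, Rgs18 rested on the fewest counts, 40 in oxLDL sample 3.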

Other observations

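Receptors of the same list with the largest fold changes outside the calls, named after their values were seen, were Fpr1, Gpr18, Fpr2 and Ccr3. Fpr1, a receptor of formylated bacterial peptides, measured 305, 197 and 148 CPM untreated and 9.53, 1.59 and 35.4 CPM with oxLDL, groups that did not overlap (-4.54 ± 1.06, edgeR adjusted p = 0.0763 with the block). Its relative Fpr2 measured 83.2, 60.6 and 81.6 CPM untreated and 4.36, 0.730 and 40.6 CPM with oxLDL (-3.57 ± 1.09, edgeR adjusted p = 0.118). Gpr18 (-4.30 ± 1.07) and the chemokine receptor Ccr3 (-3.56 ± 0.78) did not pass either.

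Single markers of other cell types also differed between samples. Cd79b, a chain of the B cell receptor, measured 38.1, 22.4 and 3.04 CPM untreated and 9.26, 4.98 and 1.53 CPM with oxLDL and fell in edgeR with the block (edgeR adjusted p = 0.0362). Pax5 was at 0. Kit, a receptor of mast cells and progenitors, measured 2.68, 7.55 and 21.7 CPM untreated and 23.2, 26.1 and 36.5 CPM under oxLDL (edgeR adjusted p = 0.0926 with the block). The other 5 mast cell and basophil markers reached at most 0.473 CPM in any sample, and Tpsb2 was at 0. Neutrophil markers summed to 7.43 to 36.7 CPM untreated and to 1.33 to 5.502 CPM with oxLDL, and the 4 of them that were tested had edgeR adjusted p-values of 0.114 to 0.376 with the block.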
